A study of Mus musculus with 6 samples.

Results

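The nitric oxide and arginine metabolism genes described here were 10 genes chosen by name, Nos2, Arg2, Ass1, Asl, Slc7a2, Slc7a1, Odc1, Gch1, Srm and Sat1, out of 24062 genes in the count tables. All 10 were found in the tables. RNA was sequenced from RAW264.7 cells, a mouse macrophage line, and the labels also name bone marrow as the source. M0 cells received no polarizing agent, M1 cells received LPS at 100 ng/mL with IFN-γ at 20 ng/mL, and M2 cells received IL-4 at 20 ng/mL, the latter 2 for 24 h. RM0, RM1 and RM2 were the irradiated counterparts, given 10 Gy of γ-rays from a 137Cs source and kept for 24 h more. The sources used here do not say whether the non-irradiated cells had that further culture time, so irradiation and time in culture cannot be told apart. Each condition was 1 library of RNA pooled from 5 wells of 1 cell line. There was therefore no spread between replicates, and no difference between a pair of libraries had a replicate check.

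Arginine is the branch point that these genes share. Nitric oxide synthases turn it into nitric oxide and citrulline, arginases turn it into ornithine and urea, and both routes draw on the same pool. Macrophages exposed to bacterial products and interferon are known for nitric oxide made by the inducible synthase, and those exposed to IL-4 are known for arginase 1. Cationic amino acid transporters bring arginine in, argininosuccinate synthase and lyase rebuild it from citrulline, and ornithine feeds the polyamines that growing cells need.

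The libraries held 17894937 to 18870516 counts each. All 8 macrophage markers (among them Ptprc, Adgre1, listed as Emr1, Cd68 and Csf1r) had 10 counts or more. Lyz2 held most of their summed level, which was 17848 and 20549 CPM (counts per 1000000 scaled counts of the library) in M1 and RM1 and 23275 to 33560 CPM in the other 4 libraries. Without Lyz2 the sum was 4366 and 3854 CPM in M1 and RM1 and 3244 to 3948 CPM in the others, and 6 of the 8 markers were higher in M1 than in M0 and 4 of 8 in RM1 than in RM0. The 3 epithelial markers were at 0 in all libraries and the T cell and B cell lists reached at most 1 and 4 counts. Of lists for other cells, the neutrophil list moved with the M1 state, from 140.5 to 340.4 CPM summed in M0, M2, RM0 and RM2 to 2196 in M1 and 3074 in RM1. Of its 3 genes in the tables, S100a8 held nearly all counts (2846 to 51228), while S100a9 reached at most 19 and Mpo at most 3. The fibroblast list, 2 of whose 6 genes were at 0 in all libraries, had 6.45 to 10.03 CPM in those 4 libraries and 43.6 and 45.8 CPM in M1 and RM1, most of it from Dcn (627 and 726 counts there), with Col1a1 at 0 to 11 counts. The endothelial list summed to 17 to 56 counts. Their part in the results below was not tested. In bulk RNA, fewer cells with a transcript and less transcript per cell cannot be told apart.

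Levels were raw counts per gene and CPM after TMM scaling, which balances libraries on their shared genes. A difference of 2-fold or more between a pair of libraries was called where either had 10 counts or more, and its 95% interval is an exact interval of counting error only. An edgeR quasi-likelihood test over all 6 libraries gave the effect shared by the irradiated and the non-irradiated pair (M1 or M2 against M0) or by the 3 states (irradiation). It treats those pairs as if they were replicates, with 2 residual degrees of freedom, and its p-values were adjusted over 11574 genes by the Benjamini-Hochberg method. M0 served as the reference of M1, M2 and RM0, and RM0 as that of RM1 and RM2, so the comparisons share libraries. Scaling mattered most for the M1 comparisons: with scaling by library totals alone, the median of all genes moved to -0.46 in M1 against M0 and to -0.25 in RM1 against RM0 on the log2 scale.

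RefSeq windows before the start site (build GRCm38.p6) matched 5 of the 10 genes: Ass1, Slc7a1, Odc1, Gch1 and Sat1. Sat1, Slc7a1 and Odc1 are shown because their transcripts rose, fell and did not pass the test in M1, respectively. Capitals mark the letters of a searched motif. The 250 bases before the start of Sat1 lay on the minus strand at chrX:155216450-155216699, those of Slc7a1 on the minus strand at chr5:148399905-148400154, and the 171 bases of Odc1 on the plus strand at chr12:17544623-17544793, where the stretch ended before the earliest annotated start.
Sat1: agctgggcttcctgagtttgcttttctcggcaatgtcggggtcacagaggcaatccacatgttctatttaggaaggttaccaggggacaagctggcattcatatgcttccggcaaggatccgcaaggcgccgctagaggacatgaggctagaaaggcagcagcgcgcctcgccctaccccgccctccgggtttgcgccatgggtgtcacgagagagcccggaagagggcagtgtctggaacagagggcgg
Slc7a1: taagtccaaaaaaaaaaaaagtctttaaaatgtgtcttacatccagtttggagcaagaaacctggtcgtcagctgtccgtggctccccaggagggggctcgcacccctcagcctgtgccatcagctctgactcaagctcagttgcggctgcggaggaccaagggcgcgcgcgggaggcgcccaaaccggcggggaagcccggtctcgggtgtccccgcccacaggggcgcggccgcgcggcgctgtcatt
Odc1: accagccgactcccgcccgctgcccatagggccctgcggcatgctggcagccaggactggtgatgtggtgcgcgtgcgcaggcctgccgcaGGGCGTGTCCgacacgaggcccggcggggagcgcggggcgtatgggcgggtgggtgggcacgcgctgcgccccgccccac

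The patterns used here for NF-kB and the interferon-stimulated response element were each 10 letters long, with some letters open to any base. With CACGTG (the E box of MYC and MAX), TGACGTCA (the cAMP response element) and TATAAA (the TATA box), they were searched on both strands of the 250 bases before each start. They occurred in 4.64%, 2.98%, 6.02%, 1.55% and 12.4% of all 32851 windows of that length, in that order. The Odc1 window held 1 match to the NF-kB pattern used here, GGGCGTGTCC, from -159 to -150. These positions count from the start site of the window (17544873), which lies past the end of the stretch shown. Whether that match fits a stricter NF-kB consensus was not tested. The Ass1 window held 1 E box from -36 to -31, which lies after the earliest annotated start of Ass1 and so inside the annotated gene. The Gch1 window held 1 TATA box on the opposite strand from -188 to -183. Sat1 and the first window of Slc7a1 held none of these letters. A further Slc7a1 window, before a start inside the gene (chromosome 5, minus strand, window 148392766 to 148393065), held TATAAA from -28 to -23. These matches describe letters only.

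Of the 10 genes, Nos2, Ass1, Slc7a2 and Sat1 were called higher and Srm lower in M1 than in M0, that is 5 of 10 called where 22.7% of 11778 genes were (9.37% higher and 13.3% lower). In RM1 against RM0, Nos2, Arg2, Slc7a2 and Sat1 were called higher and Srm lower, again 5 of 10, against 14.0% of 11713 genes (6.16% higher and 7.87% lower). Under library totals 5.1% of all genes were higher and 25.3% lower in M1 against M0, with Slc7a1 called lower as well, and 4.3% and 12.7% in RM1 against RM0, with the same 5 of the 10 genes called. M2 against M0 called Slc7a2 alone (1.44% of all genes called), and so did RM2 against RM0 (2.61%). Irradiation called 0 of the 10 genes in M0 cells (1.54% of all genes called), Ass1 as lower in M1 cells (5.34%) and Slc7a2 as higher in M2 cells (1.97%). At 1.5-fold the calls among the 10 genes were 7 in M1 against M0 (44.7% of all genes called), 6 in RM1 against RM0 (32.6%), 1 in M2 against M0 (4.95%), 2 in RM2 against RM0 (10.3%), 2 in RM0 against M0 (5.95%), 2 in RM1 against M1 (17.8%) and 3 in RM2 against M2 (7.19%). Over the 10 genes the log2 fold change had a median of 0.61 in M1 against M0 and 0.26 in RM1 against RM0, beside -0.03 and -0.01 over all genes tested.

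**Figure D1:**
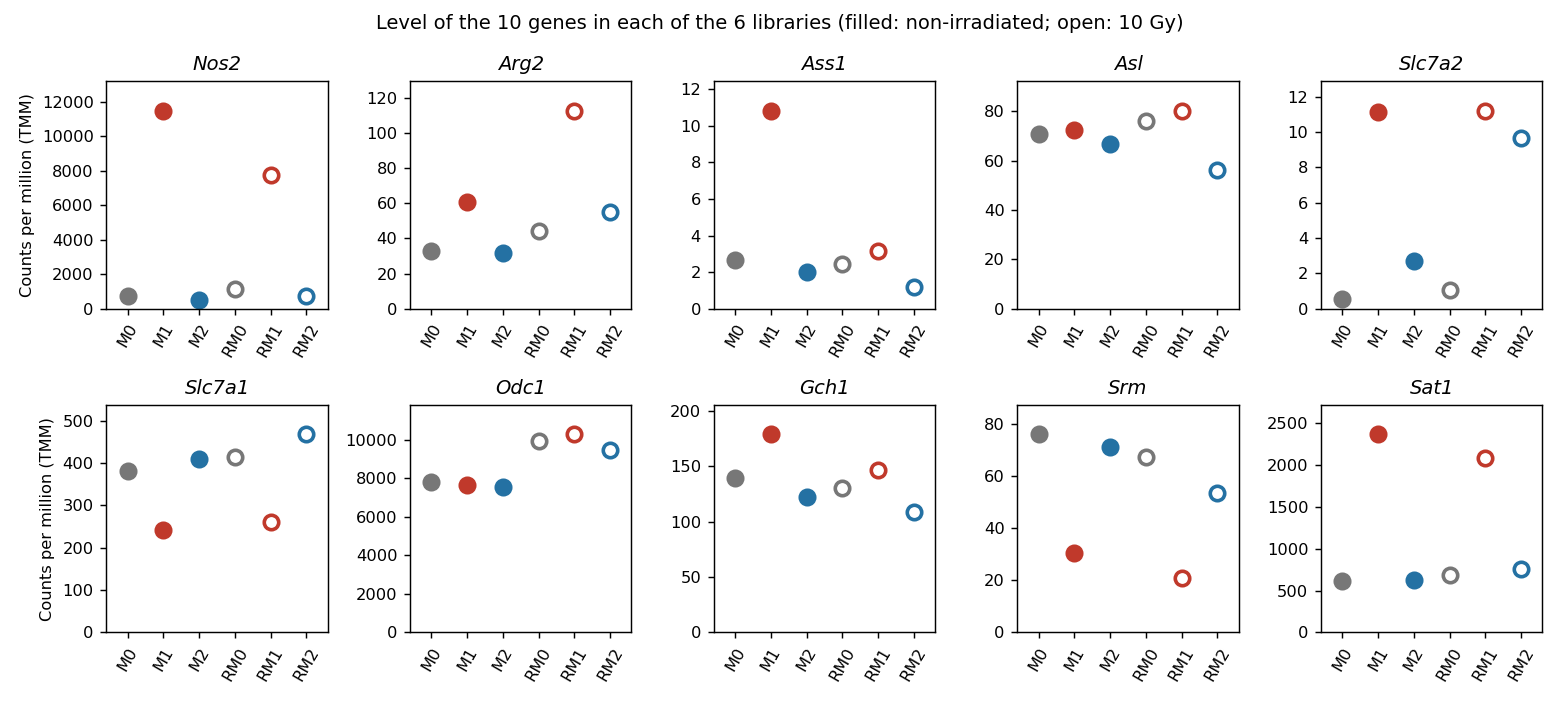
Level of each gene in the 6 libraries, in CPM after TMM scaling, on a linear axis from 0. Filled points are non-irradiated and open points irradiated libraries, grey is M0, red M1 and blue M2, and each point is 1 library with no error bar; Nos2 and Sat1 stand high in M1 and RM1, Srm and Slc7a1 low there, and Slc7a2 is also high in RM2.

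In the shared-effect test, 7 of the 10 genes passed for M1 polarization, 5 higher (Nos2, Arg2, Ass1, Slc7a2 and Sat1) and 2 lower (Slc7a1 and Srm), where 47.6% of all tested genes passed (23.3% higher and 24.3% lower). Scaling by library totals gave another split, 9.4% of all genes higher and 41.0% lower, and 4 of the 10 genes higher and 3 lower, since Ass1 no longer passed and Odc1 passed as lower. For M2 polarization 1 of 10 passed (Slc7a2), where 0.19% did. For irradiation 1 of 10 passed (Arg2), where 0.475% did. The test assumes the same effect in each pair or state.

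Nos2 (NM_010927, chromosome 11, 78920859 to 78960124, plus strand) encodes the inducible nitric oxide synthase. It had 14393 counts (M0), 169925 (M1) and 10749 (M2) without irradiation and 22038 (RM0), 129631 (RM1) and 14987 (RM2) after it, or 726, 11492, 529.9, 1125, 7775 and 755 CPM. M1 and RM1 stood far above the other 4 libraries, and M2 was the lowest. The gene took 0.920% of all counts in M1 and 0.687% in RM1, against 0.0789% in M0.

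The increase was 15.8-fold in M1 against M0 (log2 3.99, 3.96 to 4.01) and 6.91-fold in RM1 against RM0 (log2 2.79, 2.77 to 2.81). The irradiated minus the non-irradiated M1 effect was -1.20 log2 units, a difference that 1 library a condition leaves without a test. Both ends differed: RM0 was above M0 by 0.63 (0.60 to 0.66), and RM1 was below M1 (log2 -0.56, -0.57 to -0.55). RM2 was above M2 by 0.51 (0.48 to 0.55). The shared M1 effect was 3.42 ± 0.28 (SE, adjusted p = 8.53e-06 by edgeR), and it ran from 2.82 without M1 to 3.96 without RM1. Nos2 was thus higher with M1 polarization in both pairs, by amounts that differ with the pair. No shared irradiation effect was called for Nos2 (log2 0.20 ± 0.21, adjusted p = 0.687 by edgeR). Without the M1 and RM1 libraries it was 0.58, which rests on the M0 and M2 pairs alone, and its sign turned without the M0 and RM0 libraries (log2 -0.03). By irradiation the low libraries were higher and the high M1 library was lower. In M2 against M0 Nos2 was lower by less than 2-fold (log2 -0.45, -0.49 to -0.42), and in RM2 against RM0 likewise (log2 -0.57, -0.60 to -0.54). The shared M2 effect did not pass (log2 -0.52, adjusted p = 0.508 by edgeR). Without M1 or RM1 it had nearly the same size (log2 -0.51 in both).

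Gch1 (NM_008102, chromosome 14, 47153895 to 47189402, minus strand) encodes GTP cyclohydrolase 1, the first step in making tetrahydrobiopterin, the cofactor of nitric oxide synthases. Its counts were 2770 (M0), 2641 (M1) and 2473 (M2) without irradiation and 2561 (RM0), 2442 (RM1) and 2163 (RM2) after it. The highest CPM was 1.64 times the lowest, from 179 in M1 to 109 in RM2. The M1 difference was small (log2 0.35 in M1 against M0 and 0.16 in RM1 against RM0), turned to -0.09 and -0.08 under library totals, and did not pass the test (0.26 ± 0.12 SE, adjusted p = 0.0921 by edgeR). Without RM1 it passed at log2 0.34 (adjusted p = 0.0147 by edgeR). Each irradiated library was slightly below its counterpart (log2 -0.10, -0.29 and -0.16 in M0, M1 and M2 cells), and that shared effect did not pass (adjusted p = 0.408 by edgeR).

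Of 9 further genes for nitric oxide synthases and their cofactor, 7 had enough counts and 0 were called at 2-fold in M1 against M0 (22.7% of all genes called) or RM1 against RM0 (14.0%). The neuronal synthase gene Nos1 had 0 to 4 counts and the endothelial gene Nos3 had 8 to 21. Nos3 was the list's only 2-fold call in the 7 comparisons, in RM2 (20 counts) against M2 (8 counts), and it is named here after its values were seen. In the shared-effect test for M1, 0 of the 7 passed as higher and 2 as lower, where 23.3% and 24.3% of all tested genes did. These were Pts (log2 -0.42) and Spr (log2 -0.79), the steps that follow Gch1 in cofactor synthesis, also named after their values were seen. The 4 genes for subunits of soluble guanylate cyclase, the receptor of nitric oxide, had 0 counts except 1 count of Gucy1a2 in RM1.

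Slc7a2 and Slc7a1 encode the cationic amino acid transporters CAT2 and CAT1, which carry arginine into the cell. Slc7a2 (NM_001044740, chromosome 8, 40862367 to 40922070, plus strand) had 11 counts (M0), 165 (M1) and 55 (M2) without irradiation and 21 (RM0), 187 (RM1) and 192 (RM2) after it. The M1, RM1 and RM2 libraries (11.2, 11.2 and 9.68 CPM) could not be ordered beyond counting error, M2 was between at 2.71 CPM, and RM0 (1.07 CPM) and M0 (0.555 CPM) were not separated either. It was the one member called higher by both kinds of polarization, with and without irradiation.

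For Slc7a2 the change was 17.0-fold in M1 against M0 (log2 4.09, 3.45 to 5.36) and 9.60-fold in RM1 against RM0 (log2 3.26, 2.73 to 4.11). In M2 against M0 it was 4.25-fold (log2 2.09, 1.34 to 3.37) and in RM2 against RM0 8.29-fold (log2 3.05, 2.52 to 3.90). RM2 was above M2 by 3.47-fold (log2 1.80, 1.40 to 2.30), while RM1 and M1 differed by 0.01 (-0.30 to 0.32). Among the IL-4 libraries the irradiated one was therefore the higher, and among the M1 libraries neither was. The shared effects were 3.86 ± 0.43 (SE) for M1 (adjusted p = 6.35e-05 by edgeR) and 2.84 ± 0.45 (SE) for M2 (adjusted p = 0.0372 by edgeR). The M1 effect was 3.15 without M1 and 4.82 without RM1. The M2 effect was 3.45 without M2, and without RM2 it was 1.88 with an adjusted p of 0.0767 by edgeR. The M2 call was also lost under library totals (2.88, adjusted p = 0.102 by edgeR) and without an irradiation term (2.92, adjusted p = 0.591 by edgeR). The shared irradiation effect did not pass (log2 0.85, adjusted p = 0.257 by edgeR). It was 1.66 without the M1 and RM1 libraries, which rests on the M0 and M2 pairs alone, and 0.27 without the M2 and RM2 libraries.

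Slc7a1 (NM_007513, chromosome 5, 148327410 to 148399904, minus strand) had 7554 counts (M0), 3590 (M1) and 8290 (M2) without irradiation and 8132 (RM0), 4346 (RM1) and 9281 (RM2) after it. It was lowest in M1 and RM1 (243 and 261 CPM), and the other 4 libraries ran from 381 to 468 CPM. M1 was below M0 by 1.57-fold (log2 -0.65, -0.71 to -0.59) and RM1 below RM0 by 1.59-fold (log2 -0.67, -0.72 to -0.62), under the 2-fold call. The shared M1 effect passed (-0.66 ± 0.12 SE, adjusted p = 0.00152 by edgeR). By irradiation Slc7a1 differed by 0.12, 0.10 and 0.19 in M0, M1 and M2 cells on the log2 scale, which did not pass (adjusted p = 0.531 by edgeR). A ratio of counts between genes depends on their lengths and is compared here across libraries only. There were 687 counts of Slc7a1 for each count of Slc7a2 in M0 and 21.8 in M1, with 387 in RM0 and 23.2 in RM1, and 151 in M2 against 48.3 in RM2.

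Arg2 (NM_009705, chromosome 12, 79130788 to 79156301, plus strand) encodes the mitochondrial arginase, which makes ornithine. It had 657 counts (M0), 899 (M1) and 638 (M2) without irradiation and 867 (RM0), 1879 (RM1) and 1094 (RM2) after it. Its order by CPM was RM1 (113), M1 (60.8), RM2 (55.1), RM0 (44.2), M0 (33.1) and M2 (31.5), with M0 and M2 not separated by counting error. Each irradiated library was above its non-irradiated counterpart, and the M1 libraries were above the M0 libraries.

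Arg2 was higher by irradiation by 0.42 (0.27 to 0.57) in M0 cells, 0.89 (0.77 to 1.01) in M1 cells and 0.81 (0.67 to 0.95) in M2 cells on the log2 scale. The shared irradiation effect was 0.71 ± 0.12 (SE, adjusted p = 0.0266 by edgeR). It lost the call without M2 (0.66), without RM2 (0.66) and under scaling by library totals (0.72, adjusted p = 0.177 by edgeR). With M2 and RM2 left out together, or without a polarization term, it did not pass either. By polarization, M1 was above M0 by 1.83-fold (log2 0.87, 0.73 to 1.02) and RM1 above RM0 by 2.54-fold (log2 1.35, 1.23 to 1.47). The shared M1 effect was 1.11 ± 0.14 (SE, adjusted p = 0.000141 by edgeR). The end of the listed Arg2 span overlaps Vti1b on the opposite strand by 285 bases, and 14.4% of its exon windows of 100 bases are shared. Whether counting used strand is not given in the sources used here. Vti1b had 1769 counts (M0), 3010 (M1) and 1628 (M2) without irradiation and 1889 (RM0), 2682 (RM1) and 1639 (RM2) after it, and its part in the Arg2 counts was not tested.

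There were 21.9 counts of Nos2 for each count of Arg2 in M0, 189 in M1 and 16.8 in M2. After irradiation this ratio stood at 25.4 for RM0, 69.0 for RM1 and 13.7 for RM2. In RM1 against M1 Nos2 was lower and Arg2 higher.

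Arg1, the cytosolic arginase and no member of the set, was read for comparison. It had 0 counts (M0), 5 (M1) and 31 (M2) without irradiation and 2 (RM0), 1 (RM1) and 89 (RM2) after it, so that the IL-4 libraries held most of its reads. Against the floor of 3 counts a library, M2 was at least 10.1-fold higher than M0. RM2 held 43.9 times the scaled level of RM0 as a plain ratio, with an interval on the log2 scale of 3.56 to 8.53, or 21.9-fold with the prior count of the other fold changes, RM0 having 2 counts only. RM2 was above M2 by 2.81-fold (log2 1.49, 0.95 to 2.19). Arg1 was too low for the shared-effect test.

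**Figure D2:**
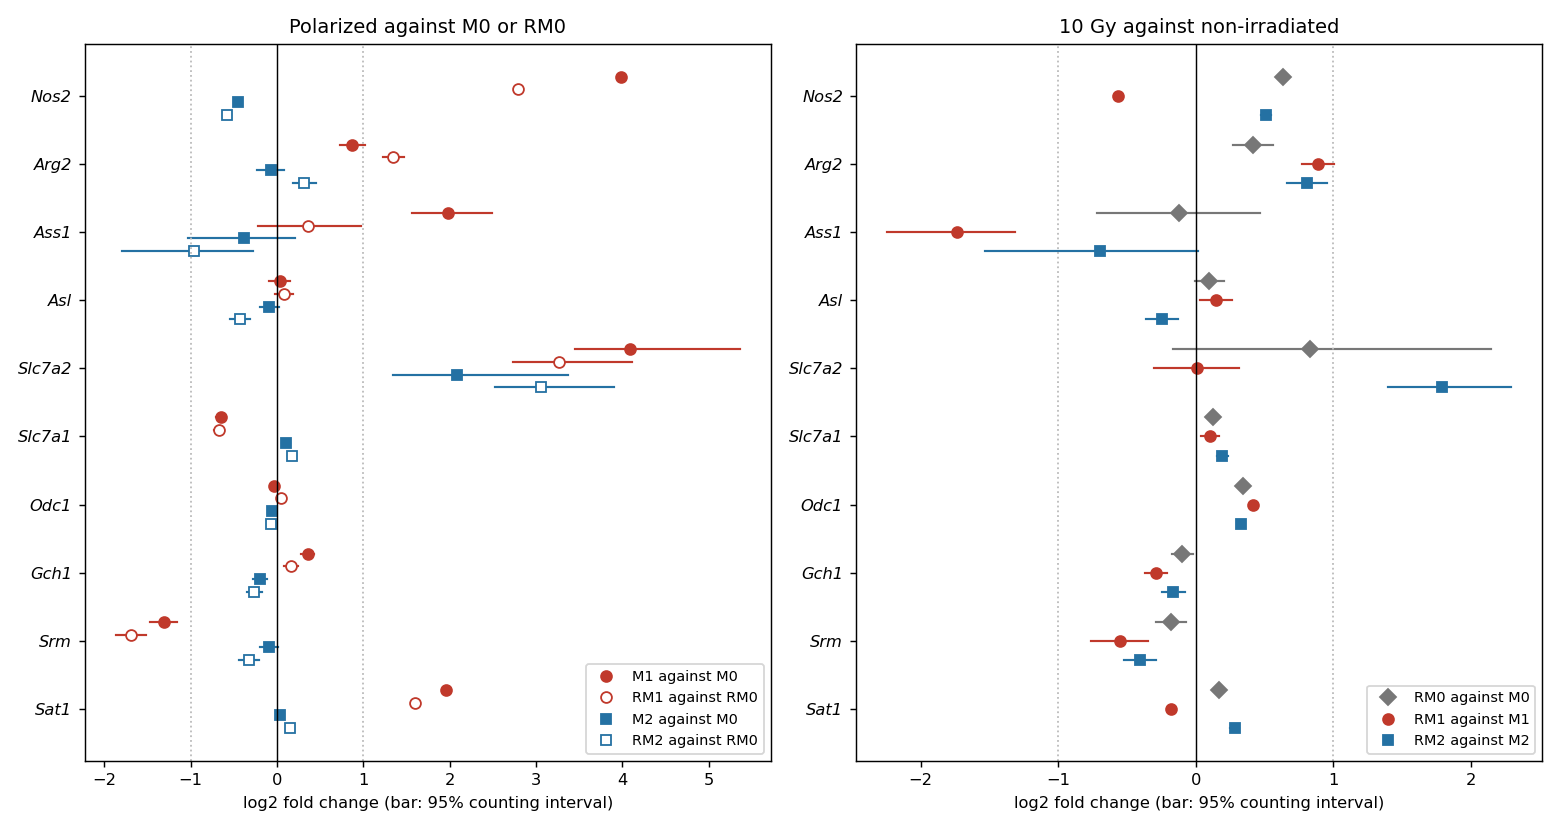
Log2 fold changes of the 10 genes between pairs of libraries, with polarized against M0 or RM0 on the left and 10 Gy against non-irradiated on the right. Bars are 95% counting intervals and dotted lines mark 2-fold. Nos2 goes from 3.99 in M1 to 2.79 in RM1, and the intervals of Arg2, Slc7a1 and Odc1 lie above 0 in all 3 irradiation comparisons.

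Ass1 and Asl encode argininosuccinate synthase and lyase, which return citrulline to arginine. Ass1 (NM_007494, chromosome 2, 31520372 to 31520670, plus strand) had 53 counts (M0), 160 (M1) and 41 (M2) without irradiation and 48 (RM0), 53 (RM1) and 24 (RM2) after it. M1 stood above the other 5 libraries, whose neighbours by CPM could not be separated by counting error. M1 was above M0 by 3.93-fold (log2 1.97, 1.56 to 2.49), but RM1 differed from RM0 by only 0.36 (-0.22 to 0.97). RM1 was below M1 by 3.33-fold (log2 -1.73, -2.24 to -1.31), the only member called by irradiation in M1 cells.

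The shared M1 effect for Ass1 was 1.29 ± 0.35 (SE, adjusted p = 0.0114 by edgeR). It rested on the M1 and M0 libraries: without M1 it was 0.51 (adjusted p = 0.227 by edgeR), and without M0 it was 0.61 (adjusted p = 0.300 by edgeR). Without RM0 or RM1 it was 1.85 or 1.90. Library totals gave 0.92 (adjusted p = 0.0593 by edgeR). Irradiation did not pass (log2 -0.96, adjusted p = 0.199 by edgeR). Its effect was -1.36 without M0 or without RM0, runs that both rest on the M1 and M2 pairs. With M0 and RM0 left out together it did not pass. The listed span is 299 bases, 12.4% of the annotated exon bases, and 38.9% of the gene's exon windows are shared with the pseudogene Gm5424. The row of Gm5424, listed at 31518726 to 31520629 on the same chromosome, had the same count as Ass1 in all 6 libraries. The Ass1 values are therefore uncertain, since reads of the 2 cannot be told apart.

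Asl (NM_133768, chromosome 5, 130011503 to 130024331, minus strand) had 1406 counts (M0), 1070 (M1) and 1354 (M2) without irradiation and 1487 (RM0), 1338 (RM1) and 1118 (RM2) after it. Its CPM ran from 56.4 in RM2 to 80.2 in RM1, the second narrowest range of the set after Odc1. Neither polarization nor irradiation passed the test (M1 0.06, adjusted p = 0.754 by edgeR), and the interval in M1 against M0 was -0.09 to 0.15. Under library totals the M1 difference turned to -0.41. By irradiation it differed by 0.15 (0.03 to 0.27) in M1 cells and by -0.24 (-0.36 to -0.13) in M2 cells, and the shared effect did not pass (adjusted p = 0.996 by edgeR).

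Among 15 further genes for arginine transport, the urea cycle and arginine use, 9 had enough counts in M1 against M0. Of these 9, 0 were called higher and 3 lower, where 9.37% of all genes were called higher and 13.3% lower. The 3 were Slc7a3, another cationic amino acid transporter (80 and 11 counts, log2 -2.28, -3.50 to -1.52), Gatm, which begins creatine synthesis from arginine (919 and 305 counts, log2 -1.16), and Slc25a15, the mitochondrial ornithine carrier (171 and 60 counts, log2 -1.07). In RM1 against RM0 their values were -0.99, -0.82 and -0.97, under 2-fold, and Slc7a3 was called higher in RM1 than in M1 (27 and 11 counts, log2 1.02, 0.06 to 2.28). All 3 passed the shared M1 test (log2 -1.62, -0.99 and -1.03, adjusted p = 0.00370, 0.000208 and 0.00183 by edgeR). Gamt, which completes creatine synthesis, was lower in RM2 than in RM0 (30 and 75 counts, log2 -1.28) with no shared effect that passed (M2 -0.88, adjusted p = 0.422 by edgeR). Arg1 and Ddah2 were the 2 called higher in RM2 against RM0. Ddah2 had 7 counts in RM0 and 21 in RM2 and is named after its values were seen.

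Odc1, Srm and Sat1 encode steps of polyamine metabolism: ornithine decarboxylase, which makes putrescine, spermidine synthase, which makes spermidine, and the acetyltransferase SSAT, which marks spermidine and spermine for export or breakdown. Odc1 (NM_013614, chromosome 12, 17544873 to 17551502, plus strand) had 155430 counts (M0), 113579 (M1) and 152831 (M2) without irradiation and 194820 (RM0), 171469 (RM1) and 188221 (RM2) after it. It took 0.615% to 1.04% of all counts in a library. All 3 irradiated libraries (9487 to 10284 CPM) were above all 3 non-irradiated ones (7535 to 7836 CPM).

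For Odc1, irradiation gave 0.34 (0.33 to 0.35) in M0 cells, 0.42 (0.41 to 0.43) in M1 cells and 0.33 (0.32 to 0.34) in M2 cells on the log2 scale. At this depth the counting intervals are narrow and carry no spread between cultures. The shared effect of 0.37 ± 0.15 (SE) did not pass (adjusted p = 0.292 by edgeR). Without the M1 and RM1 libraries it was 0.35, which rests on the M0 and M2 pairs alone. By polarization the differences were -0.03 in M1, 0.05 in RM1, -0.06 in M2 and -0.07 in RM2, the shared M1 effect did not pass (0.01, adjusted p = 0.968 by edgeR), and library totals turned it to -0.33. Of the gene's exon windows, 19.6% are shared with pseudogenes, which the counting could have split.

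Srm (NM_009272, chromosome 4, 148591513 to 148594619, plus strand) had 1506 counts (M0), 452 (M1) and 1442 (M2) without irradiation and 1316 (RM0), 347 (RM1) and 1064 (RM2) after it. M1 and RM1 were the lowest, at 30.6 and 20.8 CPM where the other 4 were at 53.6 to 75.9 CPM. M1 was below M0 by 2.48-fold (log2 -1.31, -1.47 to -1.16) and RM1 below RM0 by 3.22-fold (log2 -1.69, -1.87 to -1.52). M1 polarization had a shared effect of -1.50 ± 0.14 (SE, adjusted p = 1.66e-05 by edgeR). By irradiation Srm was lower in all 3 states (log2 -0.18, -0.55 and -0.41 in M0, M1 and M2 cells). That shared effect did not pass (-0.37, adjusted p = 0.169 by edgeR). It was -0.47 without M0 or without RM0, runs that both rest on the M1 and M2 pairs. With M0 and RM0 left out together it did not pass.

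Sat1 (NM_001291865, chromosome X, 155213126 to 155216449, minus strand) had 12113 counts (M0), 34944 (M1) and 12657 (M2) without irradiation and 13458 (RM0), 34777 (RM1) and 15083 (RM2) after it. M1 and RM1 were at 2363 and 2086 CPM and the other 4 libraries at 611 to 760 CPM, so the M1 state held the upper places with or without irradiation. The change was 3.87-fold in M1 against M0 (log2 1.95, 1.92 to 1.98) and 3.04-fold in RM1 against RM0 (log2 1.60, 1.57 to 1.63). Across both pairs the M1 effect was 1.78 ± 0.16 (SE, adjusted p = 1.66e-05 by edgeR). By irradiation Sat1 differed by 0.17 (0.13 to 0.21) in M0 cells, -0.18 (-0.20 to -0.16) in M1 cells and 0.28 (0.25 to 0.32) in M2 cells on the log2 scale, and the shared effect did not pass (adjusted p = 0.768 by edgeR). The ratio of Sat1 to Srm counts was 77.3 in M1 and 100.2 in RM1, against 8.04 in M0, 8.78 in M2, 10.2 in RM0 and 14.2 in RM2.

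In the 15 further genes of polyamine synthesis, breakdown and regulation, 0 were called at 2-fold in M1 against M0 (22.7% of all genes called). In RM1 against RM0, 2 were called, both lower (7.87% of all genes called lower). These were Dohh, which completes the hypusine residue of the factor eIF5A (1161 and 475 counts, log2 -1.05, -1.21 to -0.90), and Atp13a2, a lysosomal polyamine exporter (3265 and 1368 counts, log2 -1.02, -1.11 to -0.93). In M1 against M0 Dohh was at -0.06 and Atp13a2 at -0.75, and both passed the shared M1 test (-0.55 and -0.89, adjusted p = 0.0374 and 0.000268 by edgeR). In M2 and RM2 the call was Azin2 (listed as Adc), which encodes antizyme inhibitor 2, a protein that shields ornithine decarboxylase from antizyme. It had 152 counts (M0), 116 (M1) and 383 (M2) without irradiation and 167 (RM0), 164 (RM1) and 451 (RM2) after it. M2 and RM2 stood apart from the other 4 libraries (log2 1.29 and 1.40), and the shared M2 effect passed (1.36, adjusted p = 0.00798 by edgeR).

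Of the 7 genes listed for the proline branch, all in the tables, 1 was called higher and 2 lower in M1 against M0, where 9.37% and 13.3% of all genes were. Pycr1, the last step from ornithine or glutamate to proline, had 388 counts in M0 and 82 in M1 (log2 -1.80, -2.18 to -1.47), and 339 in RM0 and 87 in RM1 (log2 -1.71). Its shared M1 effect was -1.77 (adjusted p = 2.73e-05 by edgeR). P4ha1, a subunit of prolyl 4-hydroxylase, had 4877 counts in M0 and 7567 in M1 (log2 1.06) and passed as higher (1.00, adjusted p = 0.000148 by edgeR). The other gene called lower was Prodh, at 10 and 1 counts, named after its values were seen.

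**Figure D3:**
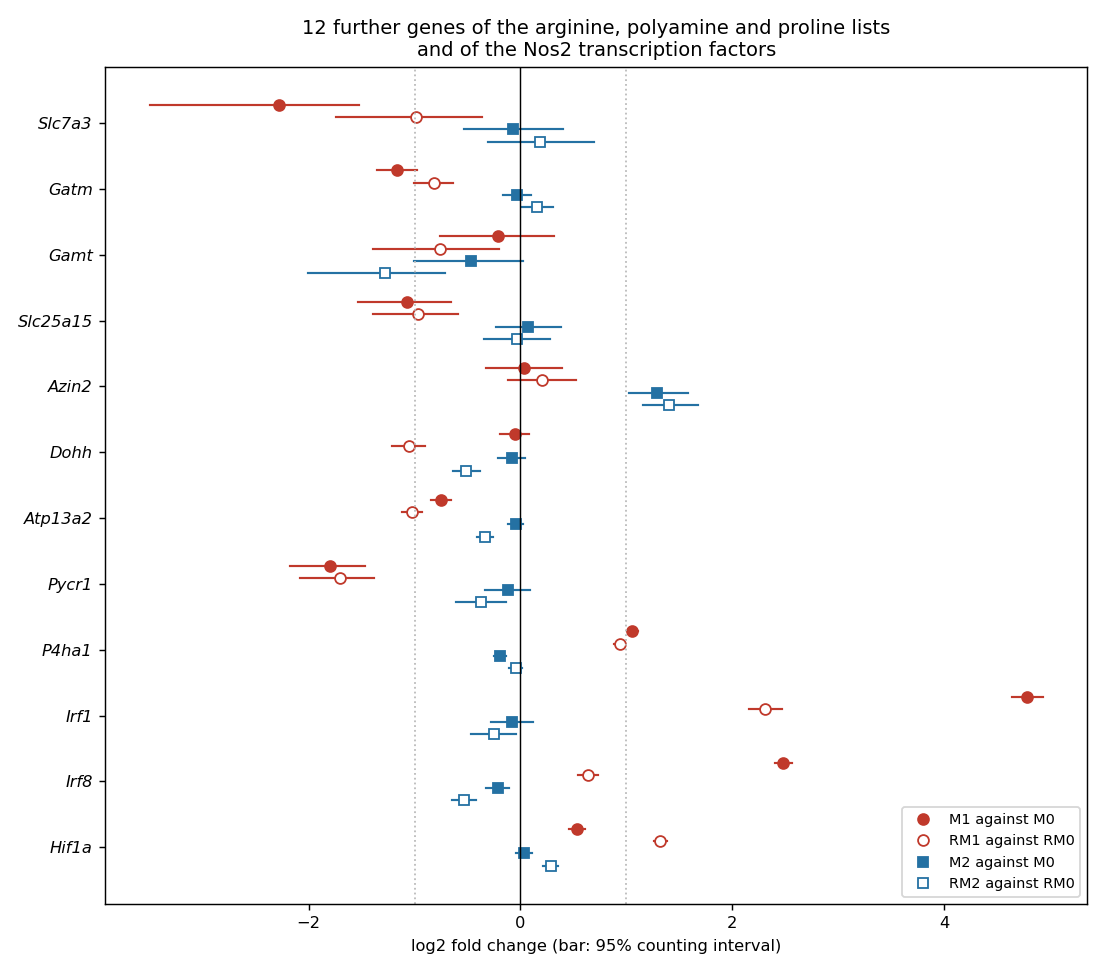
Log2 fold changes in the 4 polarization comparisons for 12 genes of the pathway lists that were called at 2-fold in at least 1 comparison with a mean of 50 counts or more. Bars are 95% counting intervals and dotted lines mark 2-fold; Azin2 is at 1.29 and 1.40 in M2 and RM2, and Irf1 goes from 4.78 in M1 to 2.31 in RM1.

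The transcription factors known to act on Nos2 were 8, and 3 of them were called higher in M1 against M0, where 9.37% of all genes were. Irf1, an interferon-regulated factor, had 419 counts (M0), 8628 (M1) and 405 (M2) without irradiation and 404 (RM0), 1710 (RM1) and 343 (RM2) after it. Irf8, a myeloid factor, had 1493, 6225, 1317, 1552, 2052 and 1086 counts in that order. Both were highest in M1, and RM1 was next.

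In M1 against M0 the log2 fold change was 4.78 (4.65 to 4.93) for Irf1 and 2.48 (2.40 to 2.57) for Irf8. In RM1 against RM0 it was 2.31 and 0.64, so Irf8 was no longer past 2-fold there. RM1 was below M1 for both (log2 -2.51 for Irf1 and -1.77 for Irf8), where Nos2 was at -0.56. Hif1a, the oxygen-regulated factor, went the other way, with 2992 counts in M1 and 5989 in RM1 (log2 0.83, 0.76 to 0.89), and was called higher in RM1 against RM0 (log2 1.32) but not in M1 against M0 (log2 0.54). The shared M1 effect passed for Irf1, Irf8 and Hif1a as higher and for Rela and Stat6 as lower (log2 -0.56 and -0.47). Nfkb1 passed for M2 as higher (log2 0.76, adjusted p = 0.0372 by edgeR), with 5266 counts in M2 against 3182 in M0. Rela, Stat6 and Nfkb1 are named after their values were seen.

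Over all lists, 58 further genes were in the tables, and 44 to 47 had enough counts in a given comparison. Of these, 9 of 46 were called in M1 against M0 (22.7% of all genes), 6 of 44 in RM1 against RM0 (14.0%), 2 of 47 in M2 against M0 (1.44%) and 4 of 46 in RM2 against RM0 (2.61%). Irradiation called 0 of 46 in M0 cells (1.54% of all genes), 3 of 44 in M1 cells (5.34%) and 2 of 47 in M2 cells (1.97%). In the shared-effect test, 45 could be tested, and 8 passed as higher and 15 as lower for M1, 2 as higher for M2 and 0 for irradiation. These shares, 23 of 45 for M1, stood beside 47.6% of all genes.

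Levels were set beside each other between genes as CPM per kilobase of the longest annotated transcript. By the median of the 6 libraries the order was Odc1 (3923), Sat1 (535), Nos2 (224), Slc7a1 (55.0), Srm (45.1), Gch1 (38.5), Arg2 (34.8), Asl (29.7), Ass1 (1.51) and Slc7a2 (0.783). Ranges over the 6 libraries overlapped between Sat1 and Nos2, between neighbours from Slc7a1 to Asl, and between Ass1 and Slc7a2. With all annotated exon bases as the length, the medians were 37.8 for Srm, 34.8 for Arg2, 34.2 for Slc7a1, 21.6 for Gch1 and 14.8 for Asl. In M1, Nos2 (2742) passed Sat1 (1748) and was under Odc1 (3479), and the same order held in RM1 (1855, 1543 and 4658). The place of Nos2 in M1 depends on the length used: per kilobase of all annotated exon bases Nos2 was at 2605 and Odc1 at 2256. The level of Ass1 may be understated on this scale, since its listed span covers 12.4% of the annotated exon bases and where its reads were counted is not given in the sources used here.

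**Figure D4:**
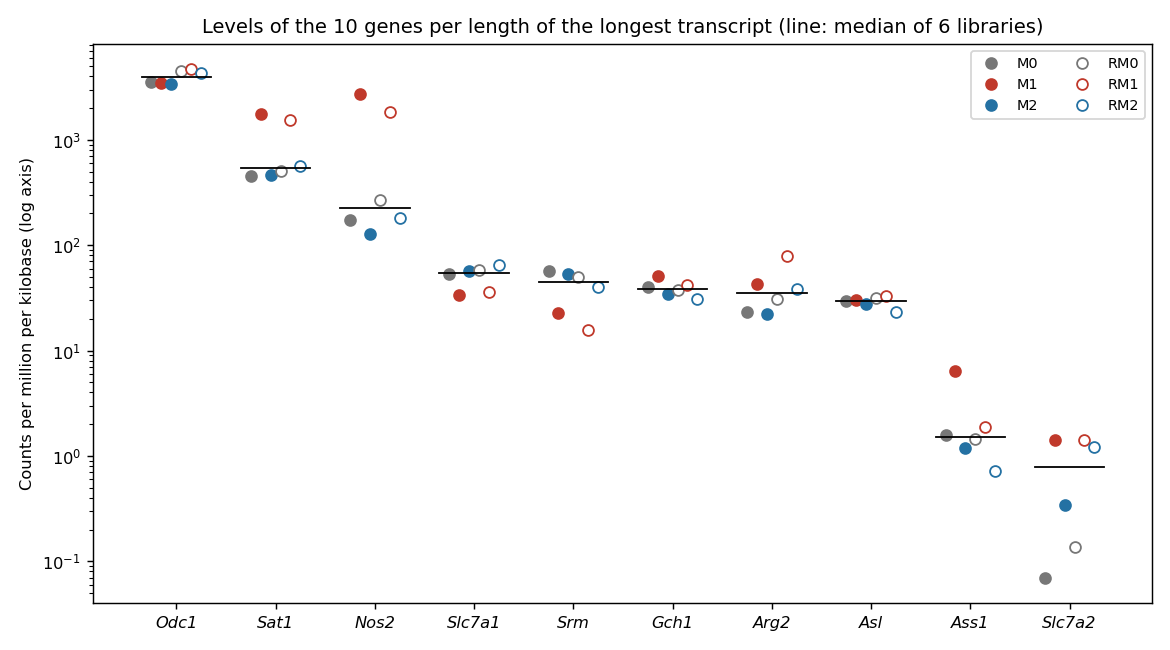
Levels of the 10 genes in CPM per kilobase of the longest transcript, on a log axis, ordered by the median of the 6 libraries (horizontal line). Filled points are non-irradiated and open points irradiated libraries; Odc1 has the highest median (3923) and Slc7a2 the lowest (0.783), and Nos2 reaches 2742 in M1.

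Likeness of pattern was measured over the 6 libraries as the root mean square difference of centred log2 CPM, among 10165 genes that averaged 50 counts or more. Nearest to Nos2, the gene with the widest range, were Adamtsl4 (0.26), Zbp1 (0.28) and Hist1h4i (0.30). Zbp1, an interferon-induced nucleic acid sensor, had 293 counts (M0), 3251 (M1) and 213 (M2) without irradiation and 386 (RM0), 2220 (RM1) and 171 (RM2) after it. Arg2 was nearest to Lif, a cytokine of the IL-6 family (0.10), with 2316, 2992, 2376, 3590, 7073 and 4353 counts. Sat1 was nearest to Emr1 (0.05), which encodes the macrophage marker F4/80, Srm to Nudt1 (0.07), Slc7a1 to Ndrg4 (0.04), Odc1 to Myof (0.02), Gch1 to Bcap31 (0.03) and Asl to Foxred1 (0.05). Slc7a2 had no close neighbour, the nearest being Gstt4 at 0.58, and Ass1 had Gm5424 at 0, whose counts are the same. Small differences are easy to reach for genes that vary little, such as Odc1 and Asl.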

How the data were processed

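RNA from 6 conditions of RAW264.7 cells was sequenced, with 1 library each. Per the labels and the study's methods, the authors trimmed reads, aligned them to mm10 and counted reads per RefSeq gene with HTSeq, and they deposited raw counts. The submitters' processing notes name Trimmomatic 0.36, HISAT2 2.2.1 and HTSeq 0.11.3; the strand setting is not given in the sources used here. The 10 genes were read by symbol; they and the pathway, marker and motif lists were chosen with earlier results of these data known.

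Samples were grouped by title. Scaling was by TMM in edgeR 4.0.16 (R 4.3.3), with 2 as the prior count of log2 fold changes and exact Clopper-Pearson intervals at 95%, which cover counting error only. Pairs of libraries had no test. The shared effects were tested by edgeR's quasi-likelihood method (polarization and irradiation as terms) on genes that reached 10 counts in 3 or more libraries. The threshold was an adjusted p of 0.05. The coefficient of variation that edgeR calls biological was 0.107. Without replicates it comes from departures from the fit of both terms and does not measure spread between cultures. Each SE was derived from the effect and its test statistic. The irradiation test was tried on simulated counts with the same change in every state. That trial cannot check the assumption of a shared effect, and it simulated no polarization effect. Totals of 17894937 to 18870516 counts limit genes under about 10 counts, and a floor of 3 counts was used against 0. DESeq2 1.42.0 and other scalings, filters, thresholds and subsets of libraries were the alternatives. Subsets without a library or a state left fewer residual degrees of freedom, and their p-values rest on the pairs that remained. Exons and overlaps came from GENCODE on GRCm38, the same build as mm10. Pathway genes were named where called at 2-fold in a comparison with a mean of 50 counts or more, with Arg1 added. The tables hold 27 symbols that had turned into dates, which were not used by name here. A gene and a motif of these lists are not reported here by name, and the counts over the lists include that gene.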

Additional observations from a re-analysis of the deposited data

Results flagged for a closer look

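For 3 of the 10 genes the irradiated library lay above its counterpart in 1 state and below it in another, with counting intervals clear of 0, in the same directions under all 3 scalings. How many of all genes meet this rule is not given here. Where counts are high, the intervals clear 0 at small changes. With 1 library a condition these differences between states were not tested.

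Nos2 was at 0.63 in RM0 against M0 and 0.51 in RM2 against M2, but at -0.56 in RM1 against M1 (log2 fold changes). Sat1 was at 0.17 in RM0 against M0 and 0.28 in RM2 against M2, but at -0.18 in RM1 against M1. Asl was at 0.15 in RM1 against M1 and at -0.24 in RM2 against M2.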

How the results depend on the processing

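No pairing by replicate was possible because each condition has 1 library and the labels carry no replicate numbers. The shared-effect test, with polarization and irradiation as terms, compared each library with its counterparts. Other scalings and another prior count gave 210 values for the 10 genes, of which 8 had another direction. A 4-fold threshold called 2 of the 10 genes in M1 against M0 and 2 in RM1 against RM0, and 0 in RM1 against M1 and in RM2 against M2. A 1.5-fold threshold called 2 in RM2 against RM0 (10.3% of all genes) and 2 in RM0 against M0 (5.95%). It called 2 in RM1 against M1 (17.8%) and 3 in RM2 against M2 (7.19%). Of the further pathway genes, 18 of 46 were called in M1 against M0, where 44.7% of all genes were. In RM1 against RM0 16 of 44 were (32.6%). Irradiation called 3 of 46 in M0 cells (5.95%), 8 of 44 in M1 cells (17.8%) and 5 of 47 in M2 cells (7.19%). A minimum of 100 counts left 0 of the 10 genes in M2 against M0, and a prior count of 0.25 gave 2 in RM2 against RM0. Library totals gave 2 of the 10 genes in RM1 against M1, where 4.2% of all genes were higher and 1.8% lower. Shares of all genes at 4-fold, at 100 counts and with the prior of 0.25 are not given here.

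For irradiation, 55 genes passed in the edgeR test with 1707 at an unadjusted p under 0.05. The count was 115 with DESeq2, 3 with library totals and 156 without a filter, and 155 without the M0 and 522 without the M1 state. Leaving out 1 library gave 77 to 660. Of the 10 genes, 0 to 4 passed with 1 library left out, 4 without the M1 state, 0 without the M2 state and 0 with library totals. With no polarization term 0 genes and 0 of the 10 passed in edgeR (138 at an unadjusted p under 0.05).

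For M2 polarization, 22 genes passed. The count was 42 with DESeq2, 3 with library totals (0 of the 10), 56 without a filter, 1321 without M1 and RM1 (2 of the 10), and 19 to 1389 with 1 library left out (0 to 2 of the 10). With no irradiation term it was 0 (0 of the 10, 621 genes at an unadjusted p under 0.05 in edgeR). For M1 polarization the count of 5509 genes stayed within 1.5 times of itself in all 12 alternatives, but its split did not: 2692 were higher and 2817 lower, and 1091 and 4750 with library totals. With library totals Odc1 turned to -0.33 for M1 polarization (adjusted p = 0.0402 by edgeR). The causes were not tested.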
